A study of Mus musculus with 8 samples.

Results

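The genes described are Nfe2l2, which encodes the transcription factor NRF2, Keap1, which encodes its inhibitor, and 8 antioxidant enzymes that NRF2 is known to control or work beside, namely Nqo1, Gclc, Gclm, Gsr, Gpx1, Txnrd1, Srxn1 and Prdx1. They were taken by name as a list of 10 of the 56748 genes in the deposited table, and all 10 passed the filter on low values, which kept genes that reached an FPKM of 1 in 2 or more of the 8 libraries. FPKM is the number of fragments scaled to the length of the gene and to the size of the library. Poly(A) RNA was sequenced from 32D cells, a mouse myeloid line that needs interleukin-3 (IL-3) to grow. Every group had been transduced with murine Jak2, either Jak2WT or the activated mutant Jak2V617F. In each of these backgrounds, clones with intact glucose transporters (GLUT1/3 WT) were set against double knockout clones (GLUT1/3 dKO), in which Slc2a1 and Slc2a3, the genes of GLUT1 and GLUT3, had been disrupted with CRISPR-Cas9. Each of the 4 groups held 2 clones, labelled 1 and 3, with 1 library each, and before RNA was taken all had spent 24 h in medium that held IL-3 at 2 ng/ml, glutamine at 1 mM and glucose at 5 mM. A clone descends from a single cell, so differences between groups of 2 clones include differences between clones.

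In unstressed cells KEAP1 binds NRF2 and presents it to a CUL3 and RBX1 ubiquitin ligase for degradation. Oxidants and electrophiles modify cysteines of KEAP1, NRF2 then accumulates, pairs with small MAF proteins and binds antioxidant response elements in its target genes. The targets fall into a quinone reductase (NQO1), the synthesis of glutathione (GCLC and GCLM) and its recycling (GSR), and the thioredoxin branch (TXNRD1, SRXN1 and PRDX1). Since NRF2 is controlled mainly by the stability of its protein, the level of Nfe2l2 RNA does not give its activity. Several of these reactions spend NADPH, which cells make largely from glucose through the pentose phosphate pathway.

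Recovered reads on genes ranged from 16846011 to 48884329 per library. Slc2a1 was at 44.7 to 64.0 FPKM in the 4 GLUT1/3 WT libraries and at 9.17 to 17.3 in the 4 dKO libraries, and Slc2a3 at 91.9 to 198 and 16.0 to 49.5, so both knocked-out genes were lower in every dKO library. Jak2 RNA was at 218 to 258 FPKM in the Jak2WT libraries and at 139 to 165 in the Jak2V617F libraries, and these values do not tell the mutant from the normal allele. Of 10 myeloid progenitor markers, Csf2rb, Il3ra, Prtn3 and Spi1 were present, while Mpo, Elane, Ctsg, Kit, Cd34 and Cebpa stayed at or below 0.203 FPKM in every library. The summed FPKM of 9 erythroid markers was 63.1 to 83.2 in Jak2WT GLUT1/3 WT, 221 to 262 in Jak2WT GLUT1/3 dKO, 505 to 852 in Jak2V617F GLUT1/3 WT and 2548 to 4638 in Jak2V617F GLUT1/3 dKO, with Alas2 and Slc4a1 at or below 0.312. Hba-a1, an alpha globin gene, alone was at 46.7 to 2007. The sum did not overlap between the groups of any comparison given here, and its part in the results was not tested. Jak2V617F GLUT1/3 dKO stood apart in other markers too, with myeloid progenitor markers summing to 80.3 and 81.7 there against 144 to 221 in the other libraries, and 6 macrophage markers, of which only Adgre1 and Cd68 were expressed, to 21.9 and 26.4 against 52.2 to 72.9. Most of that sum is Adgre1, while Cd68 was at 3.79 and 5.52 FPKM in Jak2V617F GLUT1/3 WT and at 5.61 and 6.06 in Jak2V617F GLUT1/3 dKO (0.29 ± 0.20, adjusted p = 0.305). Csf2rb, Spi1 and the macrophage marker Adgre1 were called lower with dKO on Jak2V617F, at -1.29 ± 0.15, -0.59 ± 0.12 and -1.54 ± 0.18 on the log2 scale (adjusted p = 0.00126, 0.0124 and 0.00138), and their part in the results was not tested either. Csf2rb, at 55.4 and 48.9 FPKM in Jak2V617F GLUT1/3 dKO, made up most of the myeloid progenitor sum there. Il3ra, at 8.89 and 7.99 there against 8.26 and 9.38 in Jak2V617F GLUT1/3 WT, overlapped between these groups. So did Prtn3, at 4.92 and 10.2 against 10.1 and 8.89. Megakaryocyte markers, 4 of 6 expressed, summed to 63.2 to 63.7 in Jak2WT GLUT1/3 WT, 85.3 to 90.2 in Jak2WT GLUT1/3 dKO, 178 to 189 in Jak2V617F GLUT1/3 WT and 187 to 240.1 in Jak2V617F GLUT1/3 dKO. Itga2b and Gp9 among them were called higher in Jak2V617F in both comparisons of backgrounds and with dKO on Jak2WT. Pf4 and Ppbp, at or below 0.776 FPKM in the 6 other libraries, were at 28.2 and 2.03 and at 18.5 and 3.92 in Jak2V617F GLUT1/3 dKO, and were called higher there with dKO (adjusted p = 0.0368 and 0.00688) and against Jak2WT dKO (adjusted p = 0.0453 and 0.0166). With voom on the recovered reads 0 megakaryocyte markers were called higher with dKO on Jak2V617F. Against Jak2WT dKO voom called 3 higher in place of 4. The part of these markers was not tested. In bulk RNA, fewer expressing cells and less RNA per cell cannot be told apart.

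The antioxidant response element was searched for by its core TGACNNNGC and by the form TGAGNNNGC, on both strands, from 1000 bases before to 100 bases after the start of each gene's canonical GENCODE transcript in GRCm39. The core was found for 6 of the 10 genes, Nfe2l2, Gclm, Gsr, Txnrd1, Srxn1 and Prdx1, and in 32.1% of 21770 promoters of protein-coding genes. The other form was found for Nqo1, Srxn1 and Prdx1, and in 44.0% of the promoters. Neither form lay in this window of Keap1, Gclc or Gpx1. The matches closest to the start on its upstream side, or for Gsr the one before the listed gene, are shown with 15 bases on each side because these are the genes whose levels are compared. A match of Gsr closer to the start, at position -516, lies within the listed gene and is not shown. The match shown for Txnrd1 also lies within its listed gene. Capitals mark the match, and the sequence is read on the strand named. The position is that of the base of the match farthest upstream of the start of the transcript. For Gclm, Txnrd1 and Prdx1, read on the strand opposite to the gene, this is the last base of the match as printed.
Nfe2l2, chr2:75535224-75535262, reverse strand, match from position -262: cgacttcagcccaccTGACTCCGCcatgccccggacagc
Nqo1, chr8:108130250-108130288, reverse strand, from position -339: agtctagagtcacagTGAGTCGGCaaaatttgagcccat
Gclm, chr3:122039057-122039095, reverse strand, from position -54: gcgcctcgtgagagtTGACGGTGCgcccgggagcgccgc
Gsr, chr8:34142507-34142545, forward strand, from position -744: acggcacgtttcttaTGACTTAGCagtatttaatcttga
Txnrd1, chr10:82694933-82694971, reverse strand, from position -65: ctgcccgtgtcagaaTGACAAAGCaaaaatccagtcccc
Srxn1, chr2:151947384-151947422, forward strand, from position -45: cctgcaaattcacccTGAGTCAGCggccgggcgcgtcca
Prdx1, chr4:116542648-116542686, reverse strand, from position -78: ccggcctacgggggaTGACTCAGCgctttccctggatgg
In GENCODE vM39 the stretch of Txnrd1 lies in an intron of the gene, and that of Prdx1 lies within its gene with 2 bases in exons. All 39 bases of the stretches of Nfe2l2, Txnrd1 and Prdx1 lie in exons of long non-coding RNAs (E030042O20Rik and Gm75256, Gm38560, and AV051173). A match describes these letters and does not show that NRF2 binds there.

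By FPKM, which corrects for gene length, Prdx1 was the most abundant of the 10 genes, with a mean over the 8 libraries of 91.6 and a range from 76.9 to 102. Gclm followed at 58.9, from 53.3 to 73.3, so its range lay below that of Prdx1. Srxn1 (mean 34.5) and Txnrd1 (32.1) overlapped in range, and Srxn1 in its highest library also reached the range of Gclm. The next genes overlapped too, Gsr (25.9), Gclc (22.3) and Nfe2l2 (18.2). Gpx1 (10.9), Keap1 (9.80) and Nqo1 (7.49) were the least abundant, and their ranges overlapped too. Nqo1 had the widest relative range, from 2.59 to 13.0 FPKM, and the lowest read count of the 10 genes in a library, 120 reads, with up to 994 in others.

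**Figure D1:**
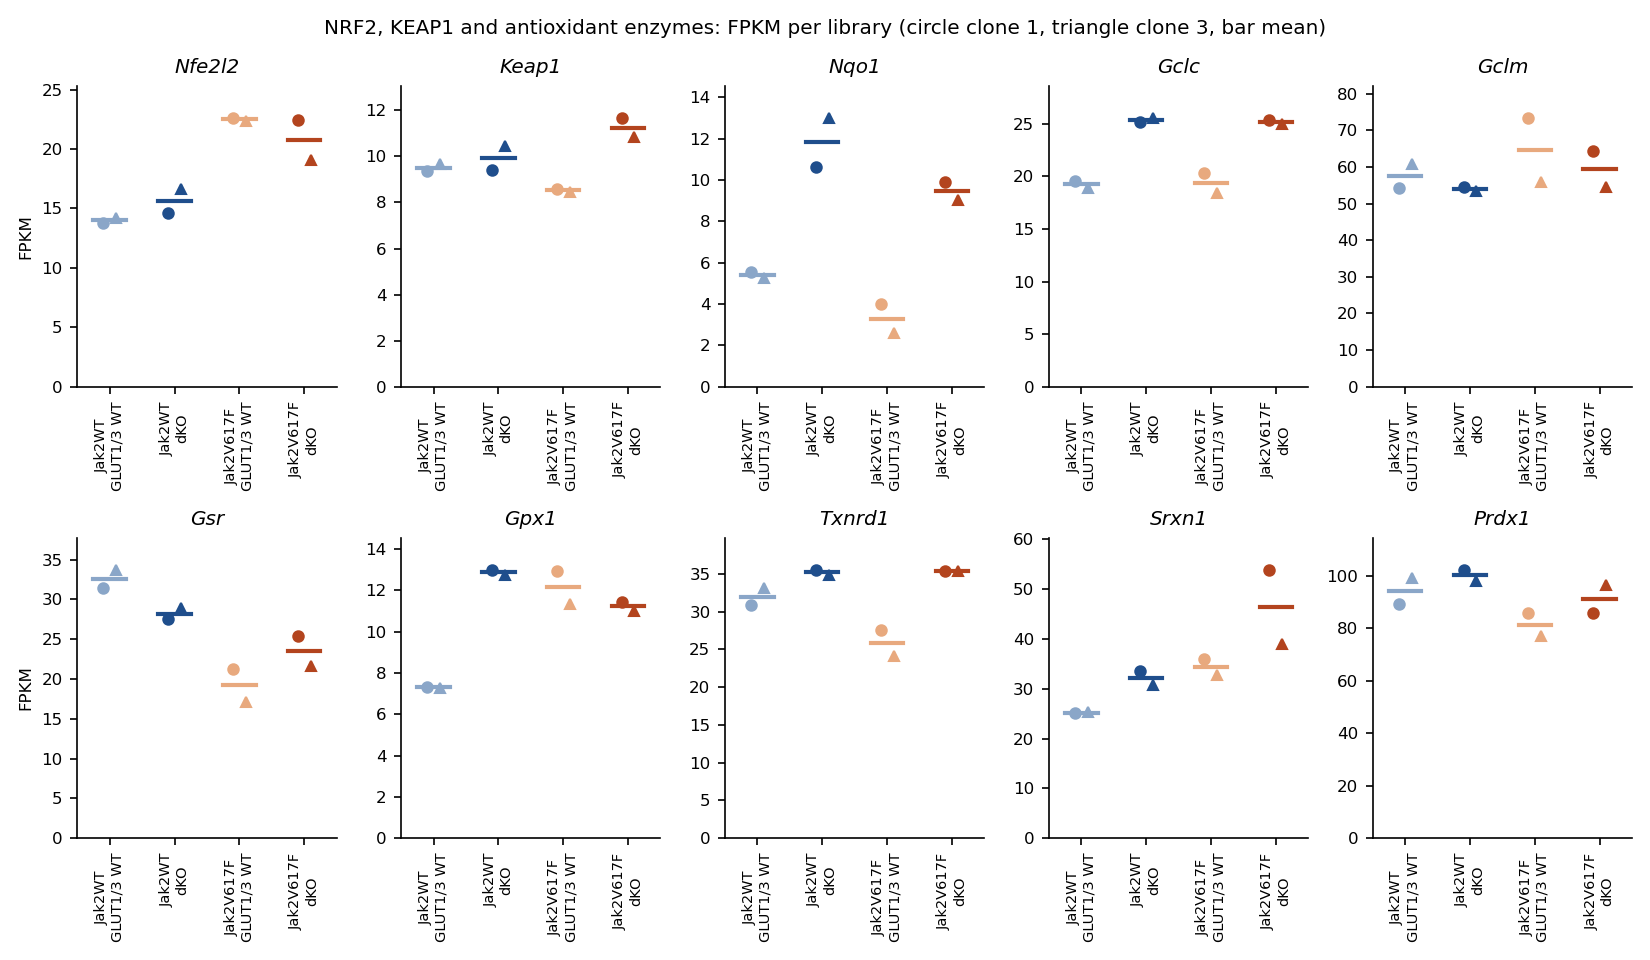
FPKM of the 10 genes (vertical axes, each from 0) in the 4 groups (horizontal axes), with clone 1 as a circle, clone 3 as a triangle and the mean of both as a bar. Nqo1 and Gclc were higher in both dKO groups than in both GLUT1/3 WT groups, while Gpx1 in Jak2WT GLUT1/3 WT, at 7.28 and 7.34, was below the 6 other libraries.

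With limma on log2(FPKM + 1) and adjustment over all 11818 genes tested, 3 of the 10 genes were higher in dKO than in GLUT1/3 WT clones on the Jak2WT background, Nqo1, Gclc and Gpx1. The share of all genes called higher in this comparison was 7.62%. None of the 10 was called lower, against 6.06% of all genes, and none was lower at an unadjusted p under 0.05 or with voom on the recovered reads. On the Jak2V617F background 4 were higher in dKO clones, Keap1, Nqo1, Gclc and Txnrd1, against 13.7% of all genes, and 0 were lower, against 16.2%, again with 0 at an unadjusted p under 0.05 and 0 with voom. The medians of the 10 log2 differences were 0.14 on Jak2WT and 0.32 on Jak2V617F, where those of all genes were 0.01 and -0.02. Leaving out any 1 of the 4 Jak2WT libraries left between 74 and 183 of all genes called higher on Jak2WT in place of 901. How the libraries were scaled moved the shares of all genes. With every library set to the same total, 5.97% were higher and 11.7% lower on Jak2WT, and 18.5% and 12.3% on Jak2V617F, where 7 of the 10 genes were then called higher, Gsr, Srxn1 and Prdx1 in addition. With voom the shares were 8.61% and 13.4% on Jak2WT and 19.8% and 13.7% on Jak2V617F, and it called the same 7 genes.

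Between backgrounds, with GLUT1/3 intact, Nfe2l2 and Gpx1 were higher in Jak2V617F than in Jak2WT clones, 2 of 10 genes against 15.3% of all genes. Nqo1, Gsr and Txnrd1 were lower, 3 of 10 against 14.9%. Among the dKO clones only Nfe2l2 passed the test, 1 of 10 higher against 7.12% of all genes, and 0 were lower against 9.96%, with 0 at an unadjusted p under 0.05 and 0 with voom. The change with dKO differed between backgrounds for Gpx1 alone by the interaction term, 1 of 10 below 0 against 5.91% of all genes. No gene of the 10 was above 0 in that term, against 4.72%, although 3 were at an unadjusted p under 0.05 and 3 with voom, in both cases Keap1, Gsr and Txnrd1. Here too the scaling counted. With the same total, 10.3% of genes were higher and 24.8% lower in Jak2V617F with GLUT1/3 intact, and 9.96% above and 3.33% below 0 in the interaction, while voom gave 11.8% and 22.5%, and 11.2% and 4.87%. The median of all genes then lay at -0.12 and 0.12 with the same total and at -0.10 and 0.11 with voom, so differences in these 2 comparisons shift by about as much.

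**Figure D2:**
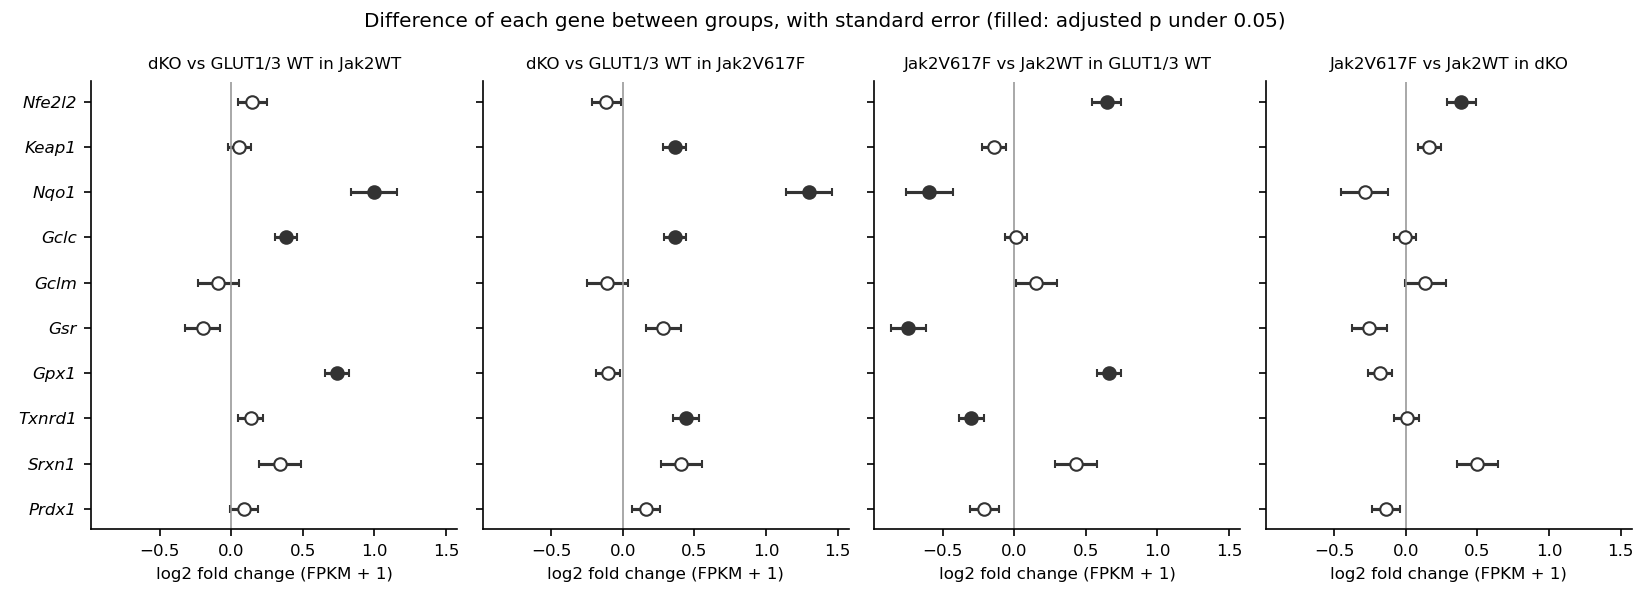
Log2 difference of each gene on the log2(FPKM + 1) scale (horizontal axes) with its standard error, 1 panel for each comparison of 2 groups of 2 clones, filled where the adjusted p was under 0.05. Nqo1 lay farthest to the right in both dKO panels, at 1.00 and 1.30, and Gsr farthest to the left with GLUT1/3 intact, at -0.74.

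Nfe2l2 (ENSMUSG00000015839, chr2:75505857-75534985, reverse strand, GRCm39 as for all coordinates here) differed with the Jak2 background. Its level was 13.8 and 14.2 FPKM in Jak2WT GLUT1/3 WT and 14.6 and 16.7 in the Jak2WT dKO clones, against 22.6 and 22.4 in the Jak2V617F clones with intact GLUT1/3 and 22.4 and 19.1 in the Jak2V617F dKO clones. All 4 Jak2V617F libraries were above all 4 Jak2WT libraries. The log2 difference was 0.65 ± 0.10 (SE; adjusted p = 0.0042) with GLUT1/3 intact, a 1.61-fold higher mean, and this passed under all 18 alternative settings. Among the dKO clones it was 0.39 ± 0.10 (adjusted p = 0.0402), and this passed under 7 of 18, with adjusted p from 0.0126 to 0.217. Leaving out any library other than Jak2V617F dKO clone 3 ended it. With dKO itself Nfe2l2 did not pass the test, at 0.15 ± 0.10 on Jak2WT (adjusted p = 0.367) and -0.12 ± 0.10 on Jak2V617F (adjusted p = 0.426).

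Keap1 (ENSMUSG00000003308, chr9:21141026-21150657, reverse strand), the adaptor that marks NRF2 for degradation, was higher in the dKO clones of the Jak2V617F background. It was at 8.60 and 8.46 FPKM in the GLUT1/3 WT clones and at 11.7 and 10.8 in the dKO clones, so the groups did not overlap, as for 64.3% of all genes tested in this comparison. The log2 difference was 0.36 ± 0.08 (adjusted p = 0.0163). On Jak2WT it was at 9.36 and 9.68 against 9.43 and 10.4, a difference of 0.05 ± 0.08 (adjusted p = 0.69) with overlapping groups, whose sign turned with the same total, at -0.035. The interaction term of 0.31 ± 0.12 did not pass (adjusted p = 0.129), but it did with the same total (adjusted p = 0.0462) and with voom (adjusted p = 0.0416). Between backgrounds Keap1 was at -0.14 ± 0.08 with GLUT1/3 intact (adjusted p = 0.225) and at 0.16 ± 0.08 among dKO clones (adjusted p = 0.217). Without Jak2V617F GLUT1/3 WT clone 1, clone 3 of that group or Jak2V617F dKO clone 1, and with only the 2 groups in the fit, Keap1 no longer passed, with an adjusted p of up to 0.0749.

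Nqo1 (ENSMUSG00000003849, chr8:108114857-108129838, reverse strand), a quinone reductase that is widely used as a readout of NRF2, changed most. In the Jak2WT background it was at 5.53 and 5.27 FPKM without knockout and at 10.6 and 13.0 in the dKO clones. In Jak2V617F it was at 4.0 and 2.59 without knockout and at 9.89 and 9.01 in the dKO clones. All 4 dKO libraries were therefore above all 4 GLUT1/3 WT libraries. The means were 2.19 times as high with dKO on Jak2WT, a log2 difference of 1.00 ± 0.16 (adjusted p = 0.0122), and 2.87 times as high on Jak2V617F, 1.30 ± 0.16 (adjusted p = 0.00178). The interaction was 0.31 ± 0.23 (adjusted p = 0.408). On Jak2V617F the call held under all 18 alternatives, with adjusted p of at most 0.0213. On Jak2WT it held under 13 of 18, and was lost with no filter on low values and without any 1 of the 4 Jak2WT libraries, with an adjusted p of up to 0.0766.

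With GLUT1/3 intact, Nqo1 was lower in Jak2V617F than in Jak2WT clones, by a log2 difference of -0.59 ± 0.16 (adjusted p = 0.0304), and this held under 13 of 18 alternatives. It was lost with no filter, with only the 2 groups in the fit and without Jak2WT GLUT1/3 WT clone 1, clone 3 of that group or Jak2V617F GLUT1/3 WT clone 3, with an adjusted p of up to 0.125. In the dKO clones the difference was -0.29 ± 0.16 (adjusted p = 0.268). Jak2V617F GLUT1/3 WT, the group lowest in Nqo1, was the highest in mean Nfe2l2 RNA.

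Glutamate cysteine ligase, the first and rate-limiting enzyme of glutathione synthesis, consists of a catalytic subunit from Gclc and a modifier subunit from Gclm, and only Gclc was called with dKO. Gclc (ENSMUSG00000032350, chr9:77661817-77701767, forward strand) was at 19.6 and 18.9 FPKM in Jak2WT GLUT1/3 WT, 25.2 and 25.5 in Jak2WT dKO, 20.3 and 18.4 in Jak2V617F GLUT1/3 WT and 25.4 and 25.01 in Jak2V617F dKO. Again all 4 dKO libraries were above all 4 GLUT1/3 WT libraries, and the difference was nearly of one size in both backgrounds, 0.38 ± 0.08 on Jak2WT (adjusted p = 0.0225) and 0.36 ± 0.08 on Jak2V617F (adjusted p = 0.0129), with an interaction of -0.02 ± 0.11 (adjusted p = 0.938). The first lost its call without any 1 of the 4 Jak2WT libraries, with an adjusted p of up to 0.139, and the second without Jak2V617F GLUT1/3 WT clone 3 and with only the 2 groups in the fit, with up to 0.0753. Between Jak2 backgrounds Gclc did not pass, at 0.01 ± 0.08 with GLUT1/3 intact and -0.01 ± 0.08 among dKO clones (adjusted p = 0.944 and 0.954), both of which changed sign with the same total, the median ratio and voom.

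Gclm (ENSMUSG00000028124, chr3:122039206-122064381, forward strand), in contrast, was at 54.4 and 60.8 FPKM in Jak2WT GLUT1/3 WT, 54.4 and 53.3 in Jak2WT dKO, 73.3 and 55.9 in Jak2V617F GLUT1/3 WT and 64.4 and 54.6 in Jak2V617F dKO. The clones overlapped in each comparison except that of the dKO groups, and the log2 differences with dKO were -0.09 ± 0.14 (adjusted p = 0.702) and -0.11 ± 0.14 (adjusted p = 0.597). Between backgrounds they were 0.15 ± 0.14 with GLUT1/3 intact (adjusted p = 0.448) and 0.14 ± 0.14 among dKO clones (adjusted p = 0.558). As FPKM values, the ratio of Gclc to Gclm was 0.360 and 0.311 in Jak2WT GLUT1/3 WT and 0.463 and 0.479 in the Jak2WT dKO clones. In Jak2V617F it was 0.278 and 0.330 against 0.394 and 0.458. The ratio was thus higher in every dKO library than in every GLUT1/3 WT library, a description with no test.

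Gsr (ENSMUSG00000031584, chr8:34142551-34188191, forward strand) encodes glutathione reductase, which uses NADPH to regenerate reduced glutathione. It was at 31.5 and 33.7 FPKM in Jak2WT GLUT1/3 WT and at 21.3 and 17.1 in Jak2V617F GLUT1/3 WT, the 2 groups furthest apart. The log2 difference of -0.74 ± 0.12 (adjusted p = 0.00497) held under all 18 alternatives. In the dKO groups the values lay in between, at 27.5 and 28.9 in Jak2WT and 25.4 and 21.7 in Jak2V617F. The differences with dKO had opposite signs, -0.20 ± 0.12 on Jak2WT and 0.28 ± 0.12 on Jak2V617F, but neither passed (adjusted p = 0.306 and 0.122), and the interaction of 0.48 ± 0.17 did not pass either (adjusted p = 0.114). With the same total and with voom the second difference and the interaction did pass. In the dKO clones Jak2V617F was at -0.26 ± 0.12 (adjusted p = 0.198).

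Gpx1 (ENSMUSG00000063856, chr9:108216102-108217542, forward strand) encodes a selenium-containing peroxidase that reduces hydrogen peroxide with glutathione. In Jak2WT it was at 7.34 and 7.28 FPKM in the GLUT1/3 WT clones and at 13.0 and 12.7 in the dKO clones, 1.76 times as high. In Jak2V617F it was at 12.9 and 11.4 in the GLUT1/3 WT clones and at 11.4 and 11.01 in the dKO clones, where the groups overlapped. The log2 difference with dKO was 0.74 ± 0.08 on Jak2WT (adjusted p = 0.00485) and -0.10 ± 0.08 on Jak2V617F (adjusted p = 0.387). Here the difference between the backgrounds was tested and passed, with an interaction of -0.84 ± 0.12 (adjusted p = 0.013). It passed under 14 of 17 alternatives and was lost without Jak2WT GLUT1/3 WT clone 1, clone 3 of that group or Jak2WT dKO clone 1, with an adjusted p of up to 0.0681. Without Jak2WT GLUT1/3 WT clone 1 the difference on Jak2WT also missed the threshold (adjusted p = 0.0502). Jak2V617F with GLUT1/3 intact was 0.66 ± 0.08 above Jak2WT (adjusted p = 0.002), under all 18 alternatives, and -0.18 ± 0.08 from it among the dKO clones (adjusted p = 0.179).

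The level of Gpx1 carries a limit of counting. In the deposited coordinates 1210 of its 1441 bases, 84.0%, lie under a long non-coding RNA of the opposite strand, ENSMUSG00000121068, from 108216011 to 108217311 on chromosome 9. The strand setting of the counting is not given in the sources used here. If strand was not used, fragments from that stretch could not be assigned to 1 gene, and the level of Gpx1 against other genes would be too low. The reads on Gpx1 numbered 182 to 905 per library.

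Txnrd1 (ENSMUSG00000020250, chr10:82669785-82733546, forward strand) encodes cytosolic thioredoxin reductase, a selenoprotein that keeps thioredoxin reduced at the cost of NADPH. In Jak2V617F it was at 27.6 and 24.1 FPKM in the GLUT1/3 WT clones and at 35.4 and 35.3 in the dKO clones. That group of GLUT1/3 WT clones was the lowest of the 4, since the Jak2WT clones were at 30.9 and 33.1 with GLUT1/3 intact and at 35.5 and 34.9 with dKO. The difference with dKO was 0.44 ± 0.09 on Jak2V617F (adjusted p = 0.0101), and it missed the threshold only with a fit of the 2 groups alone (adjusted p = 0.059). On Jak2WT it was 0.14 ± 0.09 (adjusted p = 0.338), and the interaction of 0.31 ± 0.12 did not pass (adjusted p = 0.149). With GLUT1/3 intact Jak2V617F was lower, at -0.30 ± 0.09 (adjusted p = 0.0381), a call that 9 of 18 alternatives kept, with adjusted p from 0.0025 to 0.204. It was lost without any 1 of the 4 Jak2WT libraries or Jak2V617F GLUT1/3 WT clone 3. With the same total and with voom the interaction passed.

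Srxn1 (ENSMUSG00000032802, chr2:151947436-151953296, forward strand) encodes sulfiredoxin, which repairs over-oxidised peroxiredoxins. Its level was 25.1 and 25.3 FPKM in Jak2WT GLUT1/3 WT, 33.6 and 30.8 in Jak2WT dKO, 36.0 and 32.7 in Jak2V617F GLUT1/3 WT and 53.9 and 39.0 in Jak2V617F dKO. The clones did not overlap in the 4 comparisons of 2 groups, as was the case for 60.6% to 69.4% of all genes tested in each, and none of the differences passed the test, with 0.34 ± 0.14 and 0.41 ± 0.14 for dKO on Jak2WT and Jak2V617F (adjusted p = 0.158 and 0.0708) and 0.43 ± 0.14 and 0.50 ± 0.14 for Jak2V617F with GLUT1/3 intact and with dKO (adjusted p = 0.0599 and 0.0548). The spread between the 2 Jak2V617F dKO clones was the widest. Without clone 3 of that group the difference with dKO on Jak2V617F was 0.64 and passed (adjusted p = 0.00873), and without clone 1 it was 0.18 and did not (adjusted p = 0.246). Over the 18 alternatives Srxn1 passed under 3 and 4 for dKO on Jak2WT and Jak2V617F and under 4 and 5 for Jak2V617F with GLUT1/3 intact and with dKO. With the same total and voom it passed for dKO on Jak2V617F, and with these and the median ratio for Jak2V617F among dKO clones, where the adjusted p ranged from 0.00689 to 0.213.

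Prdx1 (ENSMUSG00000028691, chr4:116542741-116558019, forward strand), the most abundant of the genes, encodes a peroxiredoxin that thioredoxin reduces. It was at 89.2 and 99.1 FPKM in Jak2WT GLUT1/3 WT and at 102 and 98.0 in Jak2WT dKO, and at 85.7 and 76.9 in Jak2V617F GLUT1/3 WT and 85.6 and 96.4 in Jak2V617F dKO. Its groups overlapped within each background, and no comparison passed, with differences from -0.21 ± 0.10 between backgrounds with GLUT1/3 intact (adjusted p = 0.152) to 0.16 ± 0.10 with dKO on Jak2V617F (adjusted p = 0.261). With the same total and with voom these 2 differences passed. On Jak2WT the difference with dKO was 0.09 ± 0.10 (adjusted p = 0.584), and -0.009 with the same total.

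Other genes that regulate NRF2 or respond to it were described from lists written by function. Their counts stand beside the shares of all genes called, with dKO 7.62% higher and 6.06% lower on Jak2WT and 13.7% and 16.2% on Jak2V617F. Of 15 regulators, 13 were tested, and with dKO 0 were higher and 2 lower on Jak2WT, and 2 higher and 3 lower on Jak2V617F, with medians of -0.12 and -0.01. On Jak2WT 3 were higher at an unadjusted p under 0.05, and voom called 1 higher. Sqstm1 encodes p62, which holds KEAP1 away from NRF2 and is itself a target of NRF2. It fell in both backgrounds, from 81.5 and 85.6 FPKM to 52.6 and 43.9 on Jak2WT (log2 difference -0.79 ± 0.11, adjusted p = 0.00755) and from 67.3 and 62.7 to 39.7 and 43.7 on Jak2V617F (-0.63 ± 0.11, adjusted p = 0.00526). The first call was lost without either of the Jak2WT GLUT1/3 WT clones, with an adjusted p of up to 0.0604. On Jak2V617F, Cul3, the scaffold of the KEAP1 ligase, fell by 0.34 on the log2 scale and its partner Rbx1 rose by 0.32, with calls that 15 and 10 of 18 alternatives kept. Nfe2l1, a relative of NRF2, fell by 0.42 there, kept by 15 of 18. All 3 calls were lost without Jak2V617F GLUT1/3 WT clone 1 or Jak2V617F dKO clone 1, and that of Rbx1 also without the other clone of either group or either Jak2WT dKO clone, with an adjusted p of up to 0.118.

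Of 23 other known targets of NRF2, 17 were tested. With dKO 1 was higher and 2 were lower on Jak2WT, and 1 was higher and 3 were lower on Jak2V617F, with medians of -0.06 and -0.07. These counts lie near the shares of all genes, 7.62% and 6.06% on Jak2WT and 13.7% and 16.2% on Jak2V617F, and voom turned the balance on Jak2V617F, to 3 higher and 2 lower. Hmox1, heme oxygenase 1, fell from 43.2 and 42.9 FPKM to 24.4 and 20.4 on Jak2WT (-0.92 ± 0.12, adjusted p = 0.00691) and from 69.2 and 56.6 to 17.5 and 17.8 on Jak2V617F (-1.77 ± 0.12, adjusted p = 0.000379). Blvrb, a biliverdin and flavin reductase, rose in both, from 6.60 and 7.19 to 10.2 and 10.9 (0.55 ± 0.12, adjusted p = 0.0285) and from 8.68 and 7.05 to 19.3 and 16.2 (1.08 ± 0.12, adjusted p = 0.00126). The Jak2WT calls were lost without either GLUT1/3 WT clone for Hmox1, with an adjusted p of up to 0.0578, and with no filter or without any 1 of the 4 Jak2WT libraries for Blvrb, with up to 0.163. BLVRB is also an abundant enzyme of red cells, and the summed erythroid markers were higher in the dKO clones of both backgrounds. Their part in its rise was not tested.

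Slc7a11 and Slc3a2, which form the exchanger that imports cystine for glutathione, fell on Jak2V617F. Slc7a11, the transporter subunit of the cystine and glutamate exchanger and a target of NRF2, was at 5.61 and 8.85 FPKM in the GLUT1/3 WT clones and at 0.94 and 1.58 in the dKO clones, a log2 difference of -1.85 ± 0.21 (adjusted p = 0.00137). Its partner subunit Slc3a2 was at 147 and 157 against 82.0 and 77.5 (-0.92 ± 0.08, adjusted p = 0.000583). On Jak2WT Slc7a11 was at 5.41 and 4.34 against 4.29 and 4.27 (-0.15 ± 0.21, adjusted p = 0.677) and Slc3a2 at 84.9 and 88.7 against 93.3 and 101 (0.16 ± 0.08, adjusted p = 0.234). The interaction passed for both, at -1.70 (adjusted p = 0.0194) and -1.08 (adjusted p = 0.00867). Testing with no filter or leaving out any 1 of the 4 Jak2WT libraries ended the first, with an adjusted p of up to 0.0818, and leaving out Jak2WT GLUT1/3 WT clone 3 the second (adjusted p = 0.0522). Both calls on Jak2V617F held under all 18 alternatives.

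Of 33 further genes of the glutathione system 22 were tested, with 0 higher and 0 lower on Jak2WT and 2 higher and 6 lower on Jak2V617F, with medians of 0.05 and -0.12. On Jak2WT 1 was higher and 0 were lower at an unadjusted p under 0.05, and voom called 0 higher and 1 lower. Gss, glutathione synthetase, which completes the molecule after the step of GCLC and GCLM, rose on Jak2V617F from 3.16 and 3.30 FPKM to 10.5 and 6.46 (1.13 ± 0.19, adjusted p = 0.00536). Mgst3, a membrane-bound glutathione transferase and peroxidase, rose there from 4.72 and 3.91 to 15.2 and 9.36 (1.29 ± 0.23, adjusted p = 0.00649). Both held under all 18 alternatives. So on Jak2V617F, Gclc and Gss were higher while Slc7a11 and Slc3a2 were lower.

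**Figure D3:**
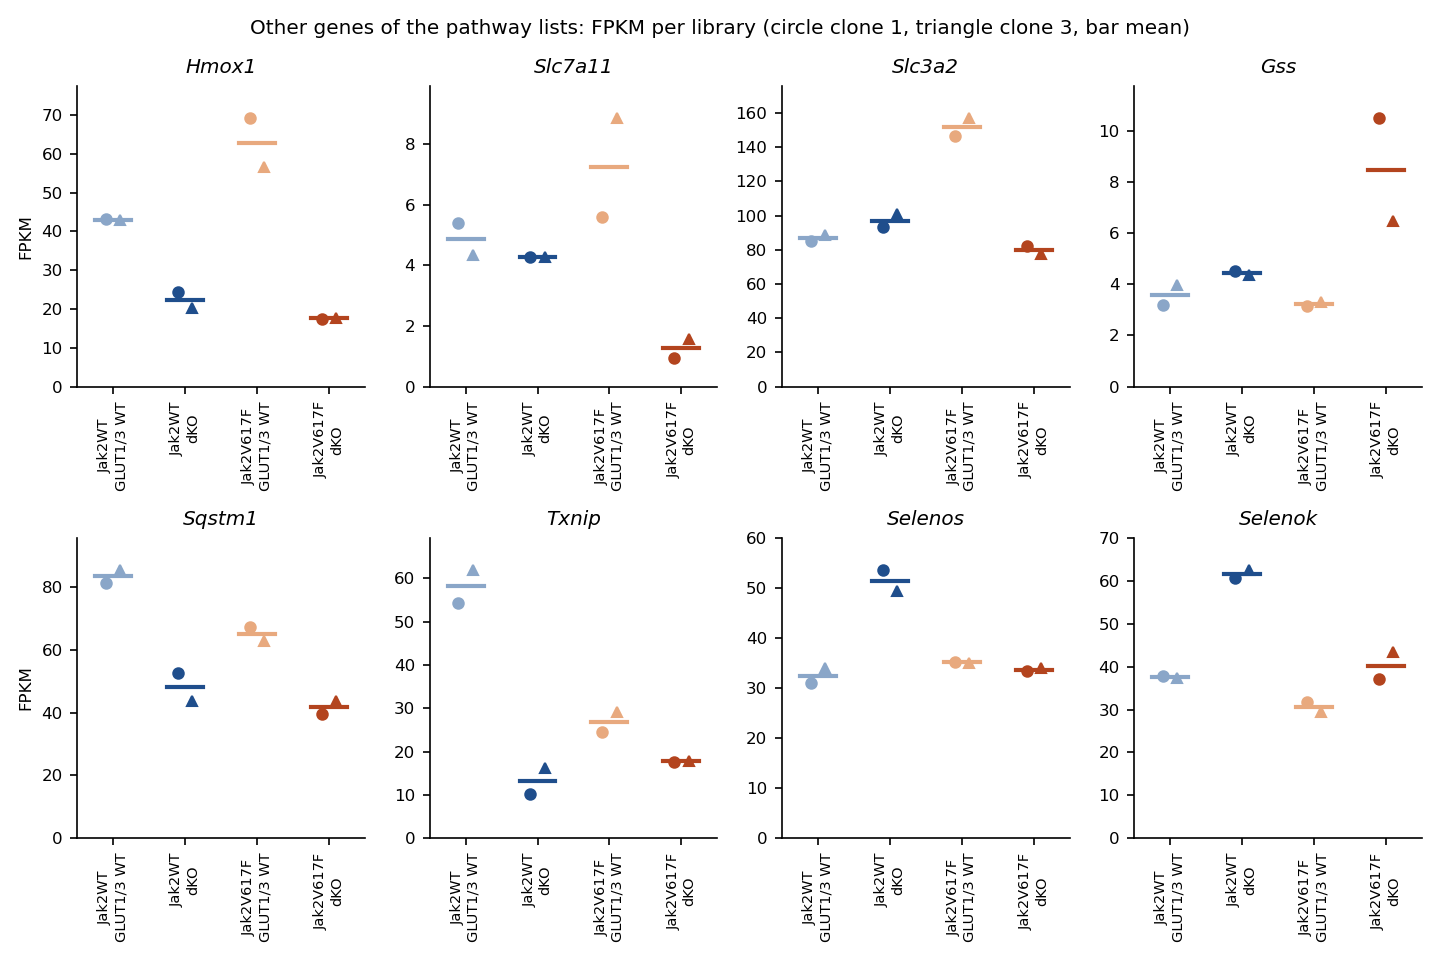
FPKM of 8 genes of the pathway lists (vertical axes, each from 0) in the 4 groups (horizontal axes), with clone 1 as a circle, clone 3 as a triangle and the mean as a bar. Hmox1 and Sqstm1 were lower in both dKO groups, Slc7a11 was lowest in Jak2V617F dKO, and Txnip was highest in Jak2WT GLUT1/3 WT, at 54.4 and 62.0.

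In the thioredoxin and peroxiredoxin list 17 of 19 genes were tested. On Jak2WT 1 was higher and 1 lower with dKO, and on Jak2V617F 0 were higher and 3 lower, with medians of 0.01 and -0.12. On Jak2WT 3 were lower at an unadjusted p under 0.05, and voom called 1 higher and 5 lower. No gene of the list was higher on Jak2V617F at an unadjusted p under 0.05 or with voom. Txnip, an inhibitor of thioredoxin whose transcription follows glucose, fell on Jak2WT from 54.4 and 62.0 FPKM to 10.3 and 16.2 (-2.08 ± 0.19, adjusted p = 0.00259), under all 18 alternatives. On Jak2V617F it was at 24.6 and 29.2 against 17.6 and 17.9 (-0.57 ± 0.19, adjusted p = 0.0595). Prdx3, the mitochondrial peroxiredoxin, fell on Jak2V617F from 153 and 138 to 98.4 and 101 (-0.54 ± 0.09, adjusted p = 0.00527). Prdx5 and Txnrd2, also mitochondrial enzymes, fell there by 0.49 and 0.40 on the log2 scale, with calls that 15 and 12 of 18 alternatives kept. Both were lost without Jak2V617F GLUT1/3 WT clone 1, that of Prdx5 also without Jak2V617F dKO clone 3, and that of Txnrd2 without Jak2V617F GLUT1/3 WT clone 3 or Jak2V617F dKO clone 1, with an adjusted p of up to 0.0919. The cytosolic Txnrd1 rose in that comparison.

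Gpx1 and Txnrd1 are selenoproteins, and other selenoproteins were counted beside them. Of 17, 14 were tested, with 4 higher and 0 lower on Jak2WT and 1 higher and 2 lower on Jak2V617F, with medians of 0.13 and -0.19. The shares of all genes were 7.62% and 6.06% on Jak2WT and 13.7% and 16.2% on Jak2V617F, and the counts on Jak2V617F lie near them. On Jak2WT 1 was lower at an unadjusted p under 0.05, and voom called 3 higher and 2 lower. The 4 that rose with dKO on Jak2WT were Selenow, from 72.8 and 72.7 FPKM to 157 and 115 (0.88 ± 0.20, adjusted p = 0.03), Selenok (0.70 ± 0.09, adjusted p = 0.00755), Selenos (0.65 ± 0.08, adjusted p = 0.00661) and Selenom (0.36 ± 0.10, adjusted p = 0.0491). SELENOK, SELENOS and SELENOM belong to the endoplasmic reticulum. The calls were kept by 13, 14, 16 and 5 of 18 alternatives, and each was lost without Jak2WT GLUT1/3 WT clone 1 and without Jak2WT dKO clone 1, with an adjusted p of up to 0.197 over all alternatives. For Selenos the interaction passed, like that of Gpx1, at -0.71 (adjusted p = 0.0174), and 13 of 17 alternatives kept it. It was lost without Jak2WT GLUT1/3 WT clone 1 or 3, Jak2WT dKO clone 1 or Jak2V617F GLUT1/3 WT clone 1, with an adjusted p of up to 0.0762. Of 9 genes that make selenocysteine or place it in proteins, 1 was higher and 0 were lower with dKO on Jak2WT, and 3 were higher and 2 lower on Jak2V617F, with medians of -0.05 and 0.31. On Jak2WT 1 of them was lower at an unadjusted p under 0.05 and 1 with voom.

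Superoxide dismutases and catalase, which remove superoxide and hydrogen peroxide without glutathione or thioredoxin, did not pass in any comparison. Of 5 such genes 4 were tested, Sod1, Sod2, Cat and Ccs, the copper chaperone of SOD1, with medians of -0.03 on Jak2WT and 0.12 on Jak2V617F. Limma called 0 higher and 0 lower in each of the 5 comparisons. At an unadjusted p under 0.05, 1 was higher with dKO on Jak2V617F and 0 elsewhere, and voom called 2 higher there and 0 elsewhere. That gene was Cat, at 42.0 and 33.6 FPKM against 45.7 and 56.1 (0.42 ± 0.14, adjusted p = 0.0528).

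Of 17 genes listed under NADPH supply, 12 were tested, and Nnt was left out because its name had 2 rows. With dKO 0 were higher and 3 lower on Jak2WT, and 1 was higher and 6 were lower on Jak2V617F, with medians of -0.09 and -0.30. The 6 were Me2, Idh1, Idh2, Mthfd1l, Mthfd2 and Nadk2. Of these, MTHFD1L makes no NADPH itself, and ME2 and MTHFD2 can use NAD. On Jak2WT 1 was higher at an unadjusted p under 0.05 and 0 with voom. Idh1, cytosolic isocitrate dehydrogenase, fell from 12.7 and 12.8 FPKM to 6.92 and 5.22 on Jak2WT (-0.97 ± 0.13, adjusted p = 0.0078) and from 8.37 and 6.92 to 3.82 and 4.24 on Jak2V617F (-0.78 ± 0.13, adjusted p = 0.00586). Me2, mitochondrial malic enzyme, fell by 0.53 and 0.64 on the log2 scale. On Jak2WT both calls were lost without either GLUT1/3 WT clone, and that of Me2 also without either dKO clone, with an adjusted p of up to 0.1. Mthfd2, of mitochondrial folate metabolism, fell from 62.5 and 71.5 to 33.0 and 35.9 on Jak2V617F (-0.94 ± 0.09, adjusted p = 0.000713) and was at 43.6 and 42.9 against 48.7 and 48.4 on Jak2WT, with an interaction of -1.10 (adjusted p = 0.00881) that was lost without either Jak2WT GLUT1/3 WT clone or Jak2WT dKO clone 1, with an adjusted p of up to 0.057. G6pdx, which opens the pentose phosphate pathway, was at 29.5 to 41.4 FPKM in all libraries, and its differences with dKO were -0.15 ± 0.12 (adjusted p = 0.418) and 0.01 ± 0.12 (adjusted p = 0.966).

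**Figure D4:**
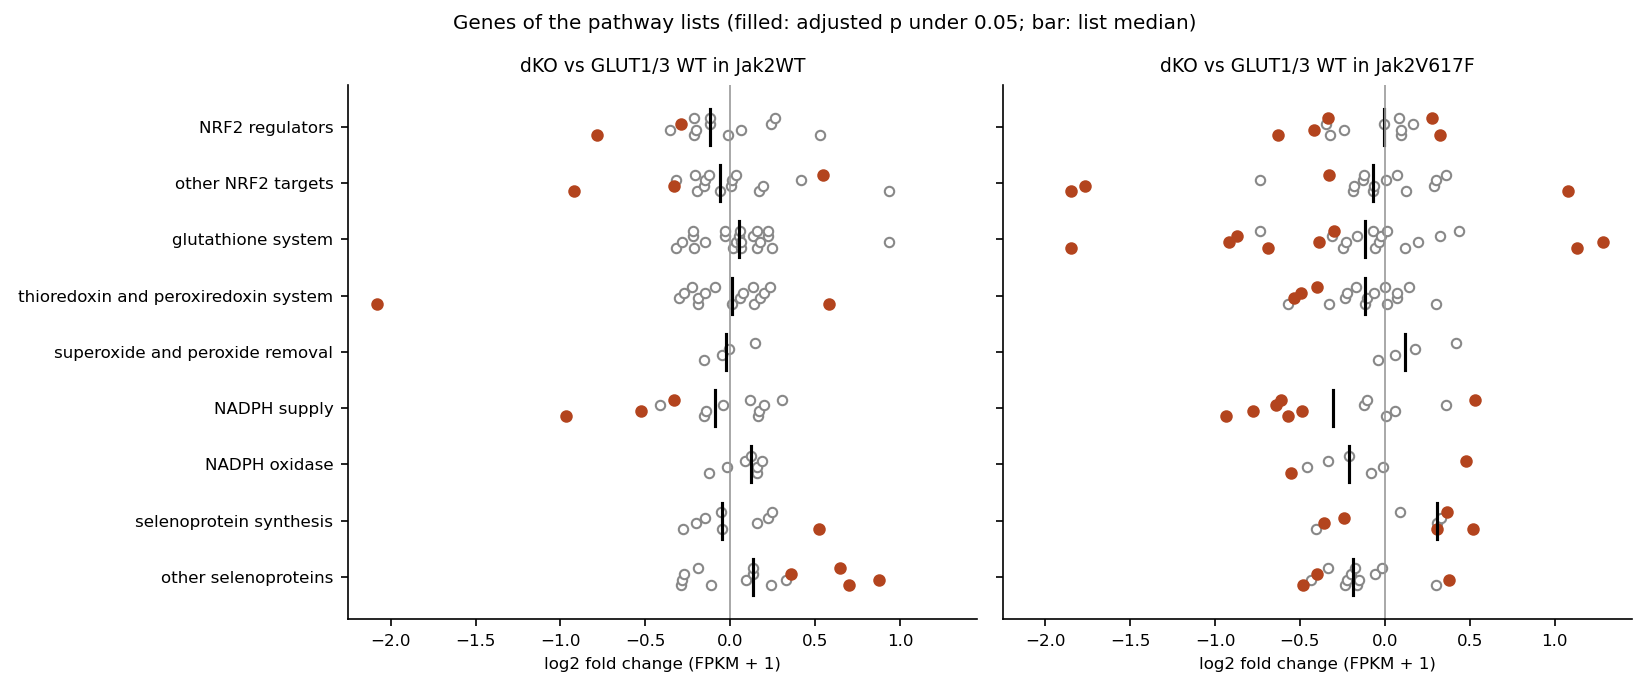
Log2 difference with dKO on the log2(FPKM + 1) scale (horizontal axes) for each tested gene of 9 pathway lists (rows), on Jak2WT at the left and Jak2V617F at the right, filled where the adjusted p was under 0.05, with a bar at the median of the list. The medians lay between -0.12 and 0.13 on Jak2WT and between -0.30 and 0.31 on Jak2V617F, and the filled points lay on both sides of 0 in 7 of the 9 lists at the right.

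NADPH oxidase, a source of superoxide and not a defence, had 7 of 8 listed genes tested. Cybb, which encodes its catalytic subunit, was not tested, at or below 0.549 FPKM in every library and at most 0.0137 in Jak2V617F. With dKO 0 were higher and 0 lower on Jak2WT, where no gene passed an unadjusted p under 0.05 or voom, with a median of 0.12. On Jak2V617F 1 was higher and 1 lower, with a median of -0.21. Ncf1, the p47 subunit of the oxidase, fell there from 13.4 and 14.8 FPKM to 8.82 and 9.80 (-0.55 ± 0.09, adjusted p = 0.00413), and Cybc1, which is needed to assemble the oxidase, rose by 0.48 (adjusted p = 0.00522). Both held under all 18 alternatives.

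Between the Jak2 backgrounds with GLUT1/3 intact, the same lists gave 1 higher and 3 lower among the regulators, 3 and 5 among the other targets of NRF2, 8 and 1 in the glutathione system and 5 and 1 in the thioredoxin and peroxiredoxin list. With voom the counts were 1 and 5, 3 and 9, 8 and 4, and 4 and 2 for these 4 lists. Of all genes 15.3% were higher and 14.9% lower in this comparison, and 11.8% and 22.5% with voom. For NADPH supply the counts were 2 and 5, for NADPH oxidase 1 and 0, with 0 lower at an unadjusted p under 0.05 and 1 with voom. They were for selenoprotein synthesis 2 and 3, and 0 and 0 for the other selenoproteins, where 3 were higher and 1 lower at an unadjusted p under 0.05 and voom called 0 and 2. The light chain of ferritin, Ftl1, a target of NRF2 that stores iron, was at 257 and 260 FPKM in Jak2WT and 567 and 483 in Jak2V617F (1.01 ± 0.21, adjusted p = 0.0118), a call that 14 of 18 alternatives kept. It was lost with no filter and without Jak2WT GLUT1/3 WT clone 1, clone 3 of that group or Jak2V617F GLUT1/3 WT clone 1, with an adjusted p of up to 0.0646. In the glutathione system Gsta4, a glutathione transferase, rose from 0.878 and 0.911 to 5.72 and 3.87 (1.59 ± 0.30, adjusted p = 0.00788), Mgst2, a membrane-bound one, from 3.61 and 3.39 to 7.77 and 8.02 (0.98 ± 0.10, adjusted p = 0.000918), and Slc3a2 by 0.80 ± 0.08 (adjusted p = 0.00106), all under all 18 alternatives. Among the genes of NADPH supply, Nadk2, the mitochondrial NAD kinase, rose from 12.3 and 12.3 to 22.9 and 21.6 (0.80 ± 0.10, adjusted p = 0.00167), also under all 18. Idh2 fell from 43.4 and 52.0 to 32.8 and 27.9 (-0.64 ± 0.12, adjusted p = 0.00775), and lost its call only without Jak2WT GLUT1/3 WT clone 3 (adjusted p = 0.0553). Ugdh, also listed as a target of NRF2, fell from 11.5 and 11.1 to 6.98 and 6.03 (-0.72 ± 0.08, adjusted p = 0.00166), under all 18. Ggt1, the 1 gene called lower in the glutathione system, fell from 2.62 and 3.38 to 1.37 and 1.44 (-0.73 ± 0.13, adjusted p = 0.00684), kept by 17 of 18.

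In Jak2V617F against Jak2WT among the dKO clones, 7.12% of all genes were higher and 9.96% lower. The lists gave 0 higher and 2 lower among the regulators, where 1 was higher at an unadjusted p under 0.05 and 1 with voom. The counts were 1 and 3 among the other targets, 6 and 3 in the glutathione system, 1 and 3 for NADPH supply and 1 and 1 for NADPH oxidase. In the thioredoxin and peroxiredoxin list they were 1 and 0, with 3 lower at an unadjusted p under 0.05 and 1 with voom. For selenoprotein synthesis they were 0 and 3, with 0 higher at an unadjusted p under 0.05 and 0 with voom, and for the other selenoproteins 1 and 6. Selenok fell from 60.6 and 62.6 FPKM to 37.0 and 43.4 (-0.61 ± 0.09, adjusted p = 0.00657) and Selenos from 53.6 and 49.3 to 33.3 and 33.9 (-0.60 ± 0.08, adjusted p = 0.00435), both under all 18 alternatives. In the glutathione system Ggt1 fell from 3.60 and 3.40 to 0.557 and 0.430 (-1.59 ± 0.13, adjusted p = 0.0006), also under all 18. Mgst3 rose from 4.98 and 3.42 to 15.2 and 9.36 (1.33 ± 0.23, adjusted p = 0.00932), a call that 17 of 18 kept. Slc7a11 fell from 4.29 and 4.27 to 0.94 and 1.58 (-1.24 ± 0.21, adjusted p = 0.00945), a call lost without either Jak2WT dKO clone, with an adjusted p of up to 0.0624.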

How the data were processed

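RNA sequencing of 8 libraries was used, and all 8 columns were assigned from the labels, with 0 left out. The authors cleaned reads with fastp 1.0.1, aligned them to mm39 (GRCm39) with HISAT2 2.2.1, counted them with featureCounts 2.0.6 and deposited FPKM values. The annotation version, strand setting and library total are not given in the sources used here. Whole reads per gene were recovered from FPKM and gene length in 100% of values within 0.01, and served for depth and for one alternative.

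The test was limma 3.58.1 (R 4.3.3) and ran on the 11818 of 56748 genes that reached an FPKM of 1 in 2 or more libraries. Values were log2(FPKM + 1), whose pseudocount of 1 understates changes of low genes. One fit held a mean for each of the 4 groups, with an intensity trend and 4 residual degrees of freedom. Benjamini-Hochberg adjustment covered every gene in the fit, and a gene was called at an adjusted p under 0.05. A log2 difference is the first-named group minus the second, ± SE of the fit. Clones are the replicates, and nothing states that their cultures were independent beyond that. Groups of 2 against 2 cannot go below p = 0.33 in a two-sided exact permutation test, so none was run.

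On simulated data for dKO against GLUT1/3 WT in Jak2V617F (11818 genes, 200 changed 2-fold), the fit recovered 179 and called 20 others, and with no change it called 0. The simulation gave every gene a coefficient of variation between clones of 0.1. Some genes here varied more, such as Slc2a3 in the Jak2WT dKO clones, at 16.0 and 49.5 FPKM. The simulated counts therefore need not hold for these data.

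The genes and lists were chosen with earlier results of these data known. Named beside the 10 genes are Slc2a1, Slc2a3 and Jak2, and genes of 9 pathway lists under a rule of up to 4 per list and comparison, those with the largest difference among the called genes whose clones did not overlap; genes named without a call, such as G6pdx, Cat and Txnip on Jak2V617F, were chosen after their values were seen. Of the 6 marker lists, erythroid, myeloid progenitor, macrophage and megakaryocyte sums are given with the results. Mast cell and basophil markers summed to 51.4 to 102 FPKM in Jak2WT and at most 2.41 in Jak2V617F. Of these 8 markers only Cpa3 reached an FPKM of 1 in any library, at 50.8 to 100.5 in Jak2WT and at most 1.67 in Jak2V617F. Its part in the results was not tested. Lymphoid markers summed to at most 0.881. Pathway lists share some genes, such as Slc7a11. Alternatives changed the filter (none, or one on mean FPKM), the pseudocount (0.1), the estimate of spread (no trend, robust, only the groups compared), the scaling (same total, median ratio) and the test (voom on recovered reads), took the clone number as a block, or left out each library in turn.

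Promoter windows came from the GRCm39 genome and GENCODE vM39. Figures were drawn with matplotlib 3.10.9. Some items are not reported here.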

Additional observations from a re-analysis of the deposited data

Results flagged for a closer look

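The change with dKO differed between the Jak2WT and Jak2V617F backgrounds by the interaction term of the limma fit, the change on Jak2V617F minus that on Jak2WT, for 15 of the 114 tested genes of the 10 and of the pathway lists, with 3 above and 12 below 0. Of all genes 4.72% were above and 5.91% below 0 in this term. The balance depended on the scaling, with 14 above and 10 below 0 with the same total, where 9.96% and 3.33% of all genes were called, 15 and 11 with voom (11.2% and 4.87%) and 4 and 10 with the median ratio (5.66% and 5.58%). Among the 10 genes it was Gpx1 alone, at -0.84 (adjusted p = 0.013). Of the cystine and glutathione genes, Slc7a11 was at -1.70 (adjusted p = 0.0194), Slc3a2 at -1.08 (0.00867), Gsta4 at -1.67 (0.0484), Ggt1 at -0.86 (0.0323), Mgst2 at -0.92 (0.015) and Mgst3 at 1.27 (0.0494), all adjusted p-values in parentheses. Hmox1 was at -0.85 (adjusted p = 0.027), Nfe2l1 at -0.68 (adjusted p = 0.0306) and Gsk3b, a kinase that marks NRF2 for degradation, at 0.57 (adjusted p = 0.0184). Txnip was at 1.51 (adjusted p = 0.0195), Mthfd2 at -1.10 (adjusted p = 0.00881) and Ncf1 at -0.67 (adjusted p = 0.0209). The selenoproteins Selenom and Selenos were at -0.54 (adjusted p = 0.0497) and -0.71 (adjusted p = 0.0174). None of the 15 kept its call under all 17 alternatives, and all 15 lost it without Jak2WT GLUT1/3 WT clone 3. Without that library the calls among all 11818 genes fell from 558 above and 698 below 0 to 2 and 3, and they fell to 27 and 41 without Jak2WT GLUT1/3 WT clone 1 and to 27 and 36 without Jak2WT dKO clone 1. The number of alternatives that kept it was lowest for Selenom (2), Gsta4 (5) and Mgst3 (6) and highest for Slc3a2 (16). The cause of the differences was not tested.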

How the results depend on the processing

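Counts of called genes among the 10 stayed within 1.5 times the reported count in 145 cases over the alternatives and did not in 33. With dKO on Jak2V617F 4 genes were called higher, 7 with the same total or voom and 1 with only the groups compared. In Jak2V617F against Jak2WT with GLUT1/3 intact 3 were called lower, 5 with the same total and 1 with no filter or with only the groups compared. Among the dKO clones 1 was higher, 2 with the same total, the median ratio or voom, and 0 with no filter, no trend or only the groups compared. No gene was above 0 in the interaction, but 3 were with the same total or voom. The cause was not tested, apart from the fewer samples of a fit on only the groups compared. With each library left out in turn, the count higher with dKO ranged from 0 to 4 on Jak2WT (0 without Jak2WT GLUT1/3 WT clone 1, and 1 without clone 3 of that group or either Jak2WT dKO clone) and from 2 to 5 on Jak2V617F (2 without Jak2V617F GLUT1/3 WT clone 3). Such a fit takes the 1 clone left in a group to vary like the other groups. The calls among all genes fell too, from 901 higher with dKO on Jak2WT to 74 and 101 without Jak2WT GLUT1/3 WT clone 1 and 3 and to 120 and 183 without Jak2WT dKO clone 1 and 3. The count lower in Jak2V617F with GLUT1/3 intact ranged from 1 to 3, with 1 without either Jak2WT GLUT1/3 WT clone or Jak2V617F GLUT1/3 WT clone 3. Among the dKO clones the count higher ranged from 0 to 2, and the count below 0 in the interaction from 0 to 1.

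Signs turned only where no call had been made. With the same total, dKO against GLUT1/3 WT on Jak2WT gave -0.035 for Keap1 and -0.009 for Prdx1. For Gclc the same total, the median ratio and voom gave -0.138, -0.003 and -0.108 between backgrounds with GLUT1/3 intact, 0.029, 0.019 and 0.038 among dKO clones and 0.167, 0.022 and 0.146 in the interaction, where Gclm had 0.173, 0.023 and 0.141. With libraries left out, Keap1 with dKO on Jak2WT ranged from -0.012 to 0.122 and Gclm with dKO on Jak2V617F from -0.301 to 0.083. Between backgrounds with GLUT1/3 intact Gclc ranged from -0.059 to 0.076 and Gclm from -0.039 to 0.345. Among dKO clones Gclc ranged from -0.019 to 0.002, Txnrd1 from -0.007 to 0.019 and Slc2a3 from -0.532 to 1.036. In the interaction Gclc ranged from -0.085 to 0.050, Gclm from -0.209 to 0.175, Srxn1 from -0.159 to 0.297 and Prdx1 from -0.014 to 0.155. Over all genes named, 2372 log2 differences under the alternatives kept direction and side of the threshold, 452 fell below it, 34 rose past it and 34 changed sign.

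With the clone number as a replicate block, the counts higher and lower were 3 and 0 with dKO on Jak2WT, 5 and 0 on Jak2V617F, 3 and 2 between backgrounds with GLUT1/3 intact, 1 and 0 among dKO clones and 0 and 1 in the interaction. Srxn1 was gained with dKO on Jak2V617F and in both comparisons of backgrounds. Txnrd1 lost its call between backgrounds with GLUT1/3 intact, and Nfe2l2 lost its call among dKO clones. Deviations of same-numbered clones from their group means correlated by -0.254 to 0.152 over the 6 pairs of groups. There is no reference for these values, so they cannot show whether same-numbered clones shared a culture day or batch. Depth limited Nqo1 most, with 120 reads in its lowest library.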
